A study of Mus musculus with 6 samples.

Results

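Solute carriers are the membrane proteins that move amino acids, sugars, metals, ions, nucleosides, vitamins and organic acids across the plasma membrane and across the membranes of mitochondria, lysosomes and the Golgi. Most work as exchangers, as facilitators that follow a gradient, or by coupling their cargo to sodium or protons. In activated macrophages they feed a changed metabolism, and carriers for amino acids, lactate, zinc and iron are known to be regulated there. Described here are the 127 solute carrier genes, of 56691 genes in the table, whose symbol has the form Slc, number, a, number and which had at least 100 counts in each of the 6 libraries. The symbol form was met by 337 genes. Of these, 9 were left out by name as carriers of iron, haem, manganese, cystine, cationic amino acids, glucose or lactate, and 201 had fewer than 100 counts in at least 1 library. The members were thus chosen by their measured counts in these libraries, and their being expressed is a description and not a finding. The difference between the gels was not part of the rule.

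The libraries came from a wild-type mouse macrophage line that the labels spell RAW246.7. All cells, on either gel, had been pretreated with LPS, the bacterial lipopolysaccharide that activates macrophages. They were then kept for 24 h on hydrogel MSA-DA (3 libraries) or on hydrogel MSA-ZW (3 libraries). The labels do not expand these gel names, and the study's title concerns fibrin networks on macroporous gels that take up protein to different extents. All libraries are from 1 cell line, and neither cells off a gel nor cells without LPS are among them. Whether each library of a gel stands for its own culture is not said in the labels, and the p-values therefore reflect the spread among these libraries alone, which may be technical. In bulk RNA, fewer cells with a transcript and less of it in each cell cannot be told apart.

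The libraries held 14374912 to 18346615 counts on MSA-DA and 16347934 to 18193026 counts on MSA-ZW. The 127 solute carriers took 1.13% to 1.14% of the counts on MSA-DA and 1.10% to 1.13% on MSA-ZW. All 9 macrophage markers passed the filter on low counts. Their summed FPKM (counts per kilobase of exon, scaled to the library total) was 2646 to 2682 on MSA-DA and 3108 to 3175 on MSA-ZW. The sum rests largely on the most abundant marker and does not describe each of the 9. Of the 9, 1 was higher and 5 were lower at an edgeR adjusted p under 0.05. The markers of fibroblasts, epithelial cells, T cells and B cells summed to at most 0.08 FPKM in any library, with Dcn, Epcam, Cdh1 and Cd3g at 0 in all 6. Endothelial markers summed to 0.13 to 0.17 FPKM on MSA-DA and 0.11 to 0.40 FPKM on MSA-ZW, and neutrophil markers to 1.9 to 2.55 FPKM on MSA-DA and 1.83 to 1.98 FPKM on MSA-ZW, with S100a9 at 0. Mitochondrial genes held 3.10% to 3.12% of the counts on MSA-DA and 2.73% to 2.78% on MSA-ZW. Loci that resemble ribosomal RNA held 0.151% to 0.160% on MSA-DA and 0.265% to 0.560% on MSA-ZW. The part of these shifts in the results below was not tested, except that dropping the mitochondrial and ribosomal-RNA-like genes from the fit kept 22 of the 24 calls described next. The median coefficient of variation of the 127 genes between libraries was 3.71% on MSA-DA and 4.14% on MSA-ZW.

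The solute carriers as a group changed little between the gels. Of the 127 genes, 24 (18.9%) were called, meaning an adjusted p under 0.05 in edgeR's quasi-likelihood test with Benjamini-Hochberg adjustment over all 12467 genes tested. Among the called carriers 16 were higher and 8 were lower on MSA-DA, and 103 were not called. No member differed by as much as 1.5-fold, and log2 differences (MSA-DA minus MSA-ZW) ran from -0.40 to 0.40. The called share over all tested genes was 13.4%, with 6.92% higher and 6.50% lower. Over the 9102 tested genes with at least 100 counts in each library, a background that meets the members' own count minimum, it was 17.2%, with 9.09% higher and 8.09% lower. The share of carriers called was near that of genes counted as deeply. The median log2 difference was 0.01 over the carriers and 0.00 over all tested genes, and the median size of the difference was 0.08 over the carriers, 0.09 over all tested genes and 0.07 over those with at least 100 counts. At an unadjusted p under 0.05 there were 42 of the 127 carriers, 3143 of all 12467 tested genes and 2768 of the 9102 with at least 100 counts. Without MSA-DA replicate 2 the number called was 14 (11% of the carriers, with 7.89% of all tested genes called in that fit), and DESeq2 also called 14 (11% of the carriers, with 15.5% of all genes it gave an adjusted p). The gels did not overlap in 22 of the 24 called carriers and in 25 of the 103 that were not called. The same share over all tested genes was not taken, so these counts do not set the carriers apart from other genes.

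**Figure D1:**
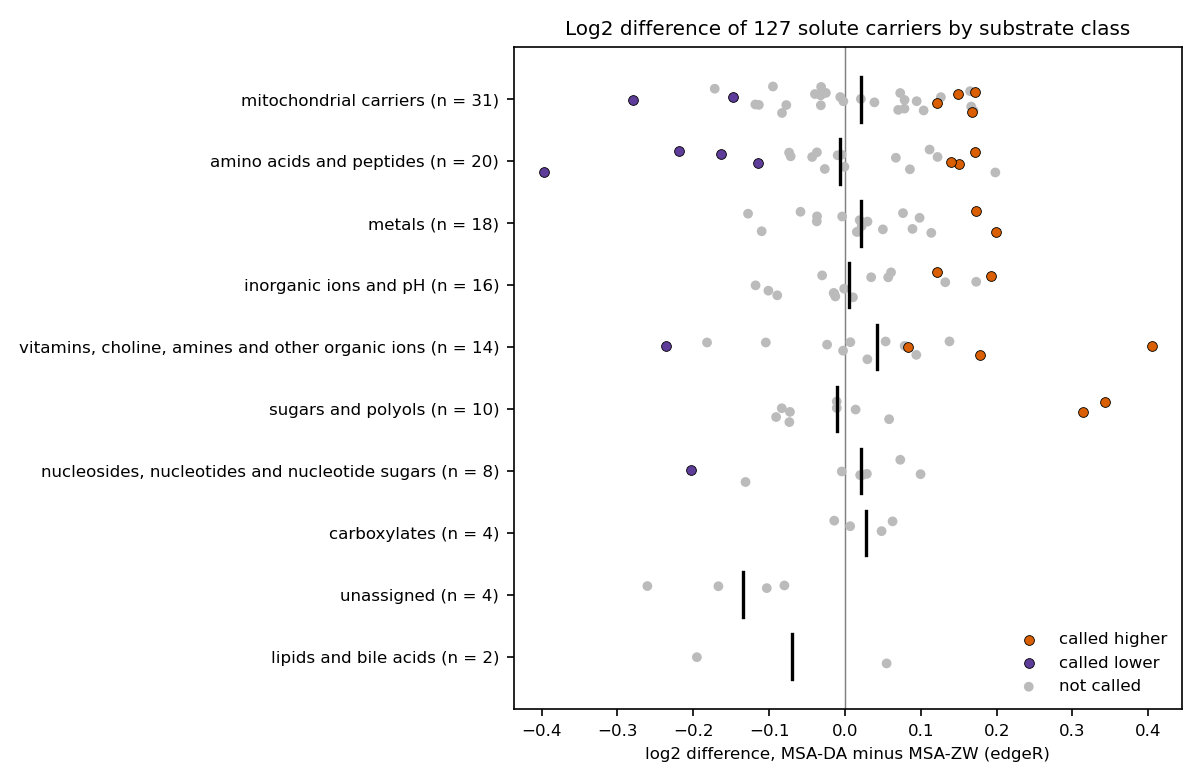
Log2 difference (MSA-DA minus MSA-ZW, horizontal axis) of the 127 solute carriers, 1 point per gene, in rows by substrate class with the number of genes, where orange points were called higher, purple points lower and grey points not called, and black bars are class medians. Points of most classes lie on both sides of 0, the class medians lie between -0.14 and 0.04, and the outermost called genes are near -0.40 and 0.40.

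The most marked changes with no overlap between gels, 2 in each direction, were in 4 carriers with different cargo. Slc16a12, a monocarboxylate transporter family member that carries creatine, was at 57.0, 60.6 and 61.0 CPM (counts scaled to a common library total) on MSA-DA and at 44.9, 44.4 and 45.7 CPM on MSA-ZW. Slc45a3, a member of the family of proton-coupled sugar transporters, was at 21.9, 23.3 and 22.6 CPM on MSA-DA and at 19.0, 17.1 and 17.5 CPM on MSA-ZW. For both genes every MSA-DA library lay above every MSA-ZW library. Slc43a2, which lets large neutral amino acids such as leucine and phenylalanine cross the plasma membrane, was at 82.5, 82.5 and 83.1 CPM on MSA-DA and at 114, 105 and 107 CPM on MSA-ZW. Slc25a22, a mitochondrial glutamate carrier, was at 28.7, 27.6 and 31.0 CPM on MSA-DA and at 36.3, 34.6 and 34.9 CPM on MSA-ZW. For these, every MSA-DA library lay below every MSA-ZW library. The log2 difference was 0.40 for Slc16a12 (SE 0.05, edgeR adjusted p = 3.18e-07), a 1.32-fold rise. It was 0.34 for Slc45a3 (SE 0.08, edgeR adjusted p = 0.00264). Slc43a2 fell by 0.40 on the log2 scale (SE 0.04, edgeR adjusted p = 4.04e-09) and Slc25a22 fell by 0.28 (SE 0.06, edgeR adjusted p = 0.00261). In the deposited table, on GRCm39, Slc16a12 lies at chr19:34645803-34724689 (minus strand), Slc45a3 at chr1:131890705-131910707 (plus strand), Slc43a2 at chr11:75422520-75468401 (plus strand) and Slc25a22 at chr7:141009657-141017805 (minus strand).

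The promoter windows of these genes, the most marked rises and falls in the set that passed with no overlap between gels, are shown to place the start of each transcript in its sequence. Each runs from 250 bases before to 50 bases after the transcript start, 5′ to 3′ on the gene's strand, from RefSeq on GRCm38.p6. Where a gene has several starts the most upstream is shown. Capitals mark matches, on either strand, to the GC box GGGCGG, the CCAAT box, the E-box CACGTG, the TATA box TATAAA and the amino acid response element TGATGNAA, and no 2 matches overlap.
Slc16a12 (GRCm38.p6 chr19:34747279-34747578, minus strand): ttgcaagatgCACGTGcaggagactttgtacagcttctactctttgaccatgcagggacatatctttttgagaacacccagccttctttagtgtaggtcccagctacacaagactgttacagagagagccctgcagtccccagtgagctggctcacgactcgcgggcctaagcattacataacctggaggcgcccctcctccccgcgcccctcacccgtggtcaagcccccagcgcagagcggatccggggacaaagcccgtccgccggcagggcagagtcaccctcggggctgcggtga
Slc45a3 (GRCm38.p6 chr1:131962665-131962964, plus strand): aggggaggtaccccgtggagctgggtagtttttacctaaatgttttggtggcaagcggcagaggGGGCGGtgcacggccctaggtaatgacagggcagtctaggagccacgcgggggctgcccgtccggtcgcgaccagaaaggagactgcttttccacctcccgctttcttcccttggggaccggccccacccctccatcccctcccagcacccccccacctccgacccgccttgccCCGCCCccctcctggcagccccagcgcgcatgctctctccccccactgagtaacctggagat
Slc43a2 (GRCm38.p6 chr11:75531444-75531743, plus strand): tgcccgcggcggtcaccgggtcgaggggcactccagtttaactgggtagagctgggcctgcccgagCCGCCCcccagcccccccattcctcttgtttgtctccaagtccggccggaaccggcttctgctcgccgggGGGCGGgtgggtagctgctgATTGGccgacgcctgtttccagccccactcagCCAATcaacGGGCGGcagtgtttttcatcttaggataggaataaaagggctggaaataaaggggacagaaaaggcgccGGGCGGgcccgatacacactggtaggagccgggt
Slc25a22 (GRCm38.p6 chr7:141437825-141438124, minus strand): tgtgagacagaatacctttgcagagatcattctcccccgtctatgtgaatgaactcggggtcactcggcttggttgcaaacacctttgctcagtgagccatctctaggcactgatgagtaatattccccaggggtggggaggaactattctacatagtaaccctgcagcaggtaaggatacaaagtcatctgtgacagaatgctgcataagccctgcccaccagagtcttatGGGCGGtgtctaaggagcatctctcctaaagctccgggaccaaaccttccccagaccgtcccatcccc

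The windows differ in the matches they hold. That of Slc43a2 has 4 GC boxes and 2 CCAAT boxes, that of Slc45a3 has 2 GC boxes, that of Slc25a22 has 1 GC box 18 bases before the start, and that of Slc16a12 has only an E-box, 240 bases before the start. No window holds a match to the TATA box or the amino acid response element. RefSeq windows matched 95 of the 127 carriers, with 135 windows in all. The GC box was in 70.4% of the carriers' windows and in 35.7% of all 32851 windows. The median GC content was 61.7% over the carriers' windows and 52.7% over all windows. By direction, the GC box was in 10 of the 18 windows of carriers called higher, which come from 12 genes, and in 12 of the 15 windows of carriers called lower, which come from 5 genes, so several starts of 1 gene are counted. The amino acid response element was in 1.48% of the carriers' windows and in 3.97% of all windows. The CCAAT box was in 34.8% of the carriers' windows and 37.4% of all windows. The E-box was in 16.3% of the carriers' windows and 7.15% of all windows, and the TATA box in 4.44% of the carriers' windows and 13.6% of all windows. The carriers were chosen by their counts, while the 32851 windows come from 27025 genes with no count minimum. The shares over windows of genes that met the minimum were not taken, so these contrasts do not set the carriers apart from other expressed genes. A match describes letters in this window only.

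**Figure D2:**
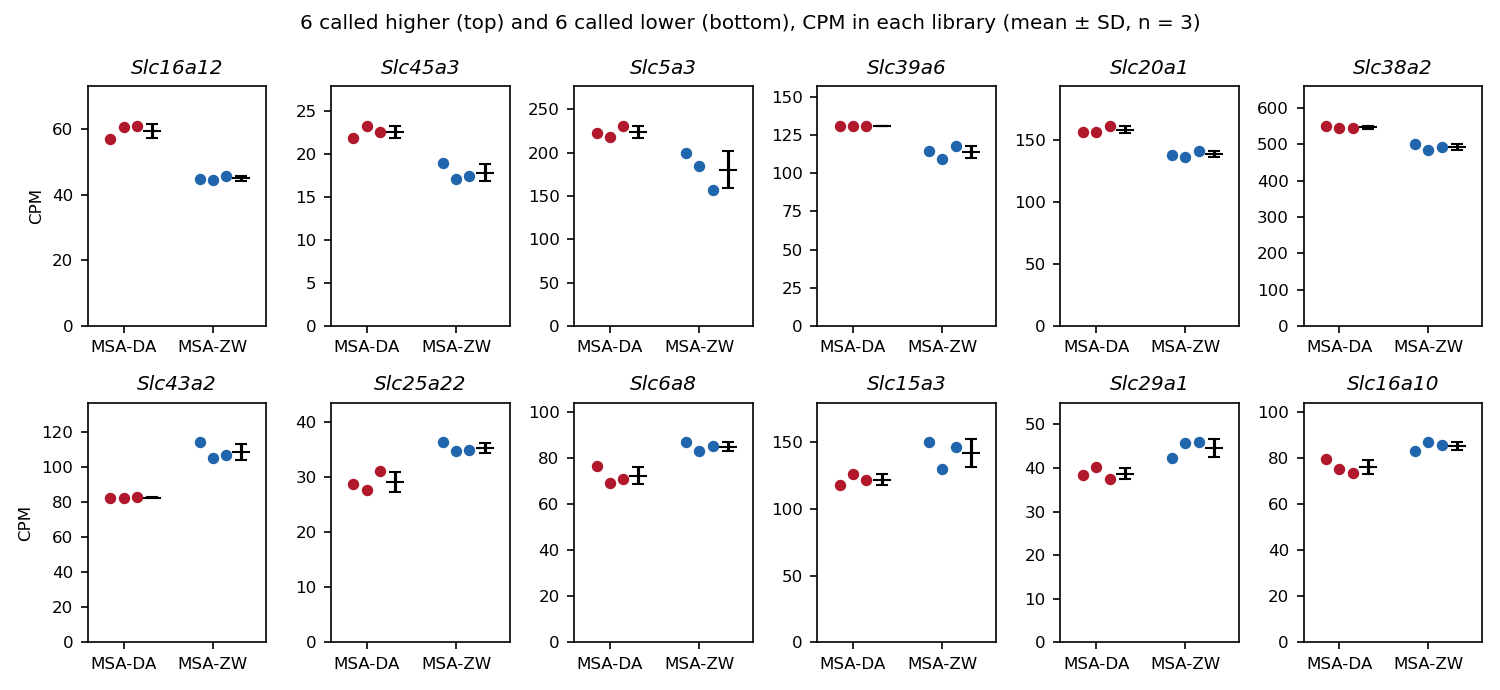
CPM in each library (vertical axis, from 0) for 6 carriers called higher (top row) and 6 called lower (bottom row), with MSA-DA in red on the left, MSA-ZW in blue on the right and black marks for the mean ± SD of 3 libraries. In each panel the red points do not overlap the blue points, and the widest spread within a gel is that of Slc5a3 on MSA-ZW, from 157 to 199 CPM.

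Amino acid and peptide carriers moved in both directions. Of 20 such genes 3 were higher, 4 were lower and 13 were not called, with a median log2 difference of -0.01. Beside Slc43a2, the lower ones were Slc15a3, Slc16a10 and Slc7a5. Slc15a3, which exports histidine and peptides from lysosomes and takes part in innate immune signalling, was at 118, 126 and 121 CPM on MSA-DA and at 150, 130 and 146 CPM on MSA-ZW. Slc16a10, a facilitator of aromatic amino acids, was at 79.5, 75.6 and 73.7 CPM on MSA-DA and at 83.3, 86.9 and 85.9 CPM on MSA-ZW. Slc7a5, the light chain of an exchanger for leucine and other large neutral amino acids, was at 97.4, 93.5 and 94.0 CPM on MSA-DA and at 107, 101 and 100.2 CPM on MSA-ZW. In all 3 the gels did not overlap, although the highest MSA-DA library of Slc15a3, at 126 CPM, was close to its lowest MSA-ZW library, at 130 CPM. Slc15a3 fell by 0.22 on the log2 scale (SE 0.04, edgeR adjusted p = 0.000242), Slc16a10 by 0.16 (SE 0.04, edgeR adjusted p = 0.00682) and Slc7a5 by 0.12 (SE 0.04, edgeR adjusted p = 0.0445). Slc16a10 was not called without MSA-DA replicate 3 (edgeR adjusted p = 0.0522), and Slc7a5 was not called when any 1 of MSA-DA replicates 2 and 3 and MSA-ZW replicates 1 and 2 was left out (edgeR adjusted p = 0.0539 to 0.19). Slc3a2, the heavy chain that Slc7a5 pairs with, was not called, with means of 171 ± 2.67 CPM on MSA-DA, against 163 ± 3.44 CPM on MSA-ZW (SD, n = 3 each).

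The higher amino acid carriers were Slc38a2, Slc36a4 and Slc38a6. Slc38a2, the sodium-coupled carrier of glutamine and alanine that is known to be induced when amino acids run short, was at 551, 545 and 545 CPM on MSA-DA and at 501, 486 and 492 CPM on MSA-ZW. The gels were well apart, and its log2 difference of 0.15 (SE 0.03, edgeR adjusted p = 5.66e-05) was called in all 17 other settings tried. Slc38a6, a relative with less settled cargo, was at 42.1, 39.3 and 41.4 CPM on MSA-DA and at 37.3, 37.0 and 34.6 CPM on MSA-ZW. Slc36a4, a carrier of proline and tryptophan, was at 84.2, 92.5 and 94.2 CPM on MSA-DA and at 80.5, 85.1 and 80.6 CPM on MSA-ZW, so its gels overlapped. Both passed narrowly, Slc38a6 at 0.17 (SE 0.06, edgeR adjusted p = 0.0474) and Slc36a4 at 0.14 (SE 0.04, edgeR adjusted p = 0.0272). Slc38a6 lost its call whichever of the 6 libraries was left out (edgeR adjusted p = 0.0583 to 0.182). Slc36a4 lost it when any 1 of 4 libraries, MSA-DA replicates 2 and 3 and MSA-ZW replicates 1 and 3, was left out (edgeR adjusted p = 0.0556 to 0.207). The most abundant of the class, the taurine carrier Slc6a6, was not called, at 87.0 ± 2.05 FPKM on MSA-DA and 87.5 ± 2.45 FPKM on MSA-ZW (SD, n = 3 each), with a log2 difference of 0.00 (SE 0.03, edgeR adjusted p = 0.99). Summed over the class, the level was 428 ± 3.36 FPKM on MSA-DA and 431 ± 4.71 FPKM on MSA-ZW.

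Creatine has 2 of the carriers with clear changes, and they moved in opposite directions. Slc6a8, the sodium-coupled creatine importer, was at 76.7, 69.4 and 71.1 CPM on MSA-DA and at 86.8, 83.0 and 85.3 CPM on MSA-ZW, with no overlap. It fell by 0.24 on the log2 scale (SE 0.04, edgeR adjusted p = 0.000209), against the rise of 0.40 in Slc16a12 given above. These belong to a class of 14 carriers of vitamins, choline, amines and other organic ions, of which 3 were higher, 1 was lower and 10 were not called, with a median log2 difference of 0.04. Slc19a2, a thiamine transporter, was at 62.0, 63.4 and 60.1 CPM on MSA-DA and at 56.0, 55.9 and 52.3 CPM on MSA-ZW. All of its MSA-DA libraries were above all of its MSA-ZW libraries, and it rose by a log2 difference of 0.18 (SE 0.05, edgeR adjusted p = 0.0102). It was not called without MSA-DA replicate 2 (edgeR adjusted p = 0.0895) or without MSA-ZW replicate 3 (edgeR adjusted p = 0.0589).

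Slc6a12, the betaine and GABA transporter, was the most abundant of that class and of all plasma membrane carriers in the set. It stood at 503, 502 and 496 CPM on MSA-DA and at 492, 460 and 465 CPM on MSA-ZW. The gap between the lowest MSA-DA library and the highest MSA-ZW library was narrow, and the log2 difference was 0.08 (SE 0.03, edgeR adjusted p = 0.04). Leaving out any library but MSA-ZW replicate 1 ended this call (edgeR adjusted p = 0.0569 to 0.214). The class as a whole summed to 342 ± 1.04 FPKM on MSA-DA and 329 ± 7.15 FPKM on MSA-ZW (SD, n = 3 each).

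Sugar and polyol carriers held 2 of the more marked rises, with no fall called. Besides Slc45a3, the rise was in Slc5a3, the sodium-coupled importer of myo-inositol and the most abundant gene of the class. Slc5a3 was at 223, 218 and 231 CPM on MSA-DA and at 199, 184 and 157 CPM on MSA-ZW. The gels did not overlap, but the MSA-ZW libraries were far apart, and the means were 224 ± 6.42 CPM on MSA-DA, against 180 ± 21.2 CPM on MSA-ZW (SD, n = 3 each). Its log2 difference was 0.31 (SE 0.05, edgeR adjusted p = 7.21e-06), and 0.22 to 0.39 with 1 library left out. Slc5a3 missed the threshold in limma on log2(FPKM + 1), with an adjusted p of 0.0562, and in both other forms of limma tried. The highest adjusted p of these limma fits was 0.18. Slc5a3 overlaps Mrps6, a mitochondrial ribosomal protein gene on the same strand, whose own log2 difference was 0.19 (edgeR adjusted p = 0.00581). Mrps6 had a mean of 1098 counts against 3330 for Slc5a3, and reads of the pair cannot be told apart without the counting settings. The other 8 of the 10 carriers in the class were not called, and the class median was -0.01. None of the 4 sugar phosphate carriers was called, and their median was -0.07.

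Of 18 metal carriers, most of them carriers of zinc, 2 were higher and none was lower, and both of the higher ones carry zinc. Slc39a6, a zinc importer, was at 131 CPM in each MSA-DA library and at 115, 110 and 118 CPM on MSA-ZW. Slc30a4, which moves zinc out of the cytosol into vesicles, was at 104, 104 and 103 CPM on MSA-DA and at 94.7, 91.1 and 90.1 CPM on MSA-ZW. The gels were apart for both genes, and both calls held in all 17 other settings, although the GC content and length correction left Slc30a4 at a log2 difference of 0.11 (edgeR adjusted p = 0.0394). The log2 difference was 0.20 for Slc39a6 (SE 0.04, edgeR adjusted p = 0.000137) and 0.17 for Slc30a4 (SE 0.04, edgeR adjusted p = 0.00157). Slc39a6 overlaps Elp2 on the opposite strand, which had a mean of 2312 counts and a log2 difference of 0.01 (edgeR adjusted p = 0.883). Among the other called carriers, Slc25a11 overlaps Rnf167 (mean 239 counts), Slc25a36 overlaps Gm16185 (mean 111 counts) and Slc15a3 overlaps Tmem132a (mean 110 counts). Slc43a2 overlaps Gm45606 (mean 46.7 counts), and Slc20a1 overlaps 9830144P21Rik (mean 30 counts) and an unnamed gene (mean 55.2 counts). Each of these neighbours is on the opposite strand, and none was called. The other 16 metal carriers were not called, and the class median was 0.02. The zinc importer Slc39a1 was the most abundant of them, at 51.8 ± 0.484 FPKM on MSA-DA and 52.2 ± 1.24 FPKM on MSA-ZW (SD, n = 3 each), with a log2 difference of 0.00 (SE 0.03, edgeR adjusted p = 0.966). The copper importer Slc31a1 was at 0.08 (edgeR adjusted p = 0.15) and the zinc exporter Slc30a1 at 0.11 (edgeR adjusted p = 0.269).

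Carriers of inorganic ions and protons had 2 rises in 16 genes and no fall, with a class median of 0.00. Slc20a1, a sodium-coupled phosphate importer and the most abundant of them, was at 156, 156 and 161 CPM on MSA-DA and at 138, 136 and 141 CPM on MSA-ZW. Its libraries were tight within each gel and apart between gels, and its log2 difference of 0.19 (SE 0.03, edgeR adjusted p = 6.39e-05) was called in all 17 other settings.

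Mitochondrial carriers were the largest class, with 31 genes of which 4 were higher, 2 were lower and 25 were not called, and with a median log2 difference of 0.02. The class includes 1 carrier of nucleotide cofactors of peroxisomes, which was not called (log2 difference 0.08). Slc25a3, which brings phosphate into the matrix for ATP synthesis, was at 629, 619 and 608 CPM on MSA-DA and at 555, 570 and 582 CPM on MSA-ZW. The gels did not overlap, and the log2 difference was 0.12 (SE 0.03, edgeR adjusted p = 0.00105), or 0.08 with the GC content and length correction. Slc25a36, a pyrimidine nucleotide carrier, was at 71.4, 74.9 and 71.0 CPM on MSA-DA and at 69.2, 63.1 and 61.0 CPM on MSA-ZW. Slc25a46, an outer membrane protein involved in the shape and division of mitochondria, was at 67.6, 75.8 and 70.7 CPM on MSA-DA and at 62.5, 67.3 and 61.5 CPM on MSA-ZW. Slc25a37, mitoferrin 1, which brings iron into the matrix, was at 55.5, 58.4 and 55.7 CPM on MSA-DA and at 49.3, 50.1 and 53.6 CPM on MSA-ZW. In these 3 genes the gels did not overlap, but the lowest MSA-DA library lay only just above the highest MSA-ZW library. Their log2 differences were 0.17 (SE 0.05, edgeR adjusted p = 0.0129) for Slc25a36, 0.17 (SE 0.05, edgeR adjusted p = 0.0171) for Slc25a46 and 0.15 (SE 0.05, edgeR adjusted p = 0.0438) for Slc25a37. The call of Slc25a36 ended when any 1 of 3 libraries, MSA-DA replicate 2 and MSA-ZW replicates 2 and 3, was left out (edgeR adjusted p = 0.0627 to 0.123). That of Slc25a46 ended when any 1 of 4, MSA-DA replicates 2 and 3 and MSA-ZW replicates 1 and 3, was left out (edgeR adjusted p = 0.0524 to 0.218), and that of Slc25a37 when any library but MSA-ZW replicate 3 was left out (edgeR adjusted p = 0.0805 to 0.24).

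The lower mitochondrial carriers were Slc25a22 and Slc25a11, the exchanger of oxoglutarate and malate. Slc25a11 was at 80.9, 73.7 and 84.1 CPM on MSA-DA and at 91.3, 83.5 and 89.0 CPM on MSA-ZW, and the gels overlapped. It fell by 0.15 on the log2 scale (SE 0.05, edgeR adjusted p = 0.0273), and the call ended without MSA-DA replicate 2, where the log2 difference was -0.10 (edgeR adjusted p = 0.256), or without MSA-ZW replicate 1 (edgeR adjusted p = 0.119). Slc25a5, an ADP and ATP exchanger and the most abundant of the 127 carriers, was not called, at 373 ± 6.13 FPKM on MSA-DA and 384 ± 12.2 FPKM on MSA-ZW (SD, n = 3 each). Slc25a5 and its relative Slc25a4 are similar in sequence, so the split of reads between them is uncertain. Summed over the class, the level was 906 ± 7.79 FPKM on MSA-DA and 909 ± 18.2 FPKM on MSA-ZW, or 37.3% of the summed FPKM of all 127 carriers on MSA-DA and 37.7% on MSA-ZW.

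Of 8 carriers of nucleosides, nucleotides and nucleotide sugars, 1 was lower and none was higher. Slc29a1, the equilibrative nucleoside transporter of the plasma membrane, was at 38.4, 40.2 and 37.6 CPM on MSA-DA and at 42.2, 45.8 and 45.9 CPM on MSA-ZW. Every MSA-DA library was below every MSA-ZW library, and Slc29a1 fell by 0.20 on the log2 scale (SE 0.06, edgeR adjusted p = 0.0135). The call ended without MSA-DA replicate 3 (edgeR adjusted p = 0.0684) or MSA-ZW replicate 2 (edgeR adjusted p = 0.0545). The most abundant of the class, the Golgi carrier of UDP-N-acetylglucosamine Slc35a3, was not called, at 15.9 ± 0.391 FPKM on MSA-DA and 15.2 ± 0.875 FPKM on MSA-ZW (SD, n = 3 each).

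No call was made among 4 carboxylate carriers, 2 fatty acid carriers and 4 carriers without an assigned cargo. The lactate and pyruvate carrier Slc16a1 was at 87.9 ± 2.18 FPKM on MSA-DA and 85.4 ± 1.06 FPKM on MSA-ZW, with a log2 difference of 0.05 (SE 0.03, edgeR adjusted p = 0.285). Slc27a1, which takes up and activates long-chain fatty acids, was at 34.0 ± 1.33 FPKM on MSA-DA and 32.9 ± 1.46 FPKM on MSA-ZW, with 0.05 (SE 0.03, edgeR adjusted p = 0.335). Slc35a4, of the nucleotide sugar carrier family, was at 25.2 ± 0.465 FPKM on MSA-DA and 26.7 ± 0.8 FPKM on MSA-ZW, with -0.08 (SE 0.04, edgeR adjusted p = 0.214) (SD, n = 3 each throughout). By place in the cell, none of 22 carriers of the endoplasmic reticulum or Golgi was called, against 15 of 56 of the plasma membrane, 6 of 31 of mitochondria and 3 of 13 of lysosomes or endosomes. These shares differ in a set whose places were assigned by hand, and the difference was not tested.

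Many carriers of well-known cargo were not called, with small differences. Among mitochondrial carriers this held for Slc25a1, which exports citrate (30.6 FPKM on MSA-DA, against 32.8 FPKM on MSA-ZW), and for Slc25a10, which carries dicarboxylates (16.6 FPKM on MSA-DA, against 16.2 FPKM on MSA-ZW). The glutathione carrier Slc25a39 was at 25.3 FPKM on MSA-DA, against 26.0 FPKM on MSA-ZW, and the aspartate and glutamate carriers Slc25a12 and Slc25a13 had log2 differences of -0.08 and 0.07. Of the 6 mitochondrial amino acid carriers only Slc25a22 was called, and of the 11 carriers of nucleotides and cofactors only Slc25a36. At the plasma membrane the glutamine importer Slc1a5 was at 61.2 ± 1.65 FPKM on MSA-DA and 61.7 ± 1.6 FPKM on MSA-ZW, and the ascorbate importer Slc23a2 at 49.7 ± 0.413 FPKM on MSA-DA and 48.1 ± 0.797 FPKM on MSA-ZW (SD, n = 3 each). The hexose carriers Slc2a3 and Slc2a6 had log2 differences of -0.01 and 0.06, and the choline carriers Slc44a1 and Slc44a2 of -0.02 and 0.14. Slc6a13, a GABA carrier related to Slc6a12, was at 12.7 FPKM on MSA-DA, against 12.0 FPKM on MSA-ZW. The potassium and chloride carrier Slc12a7 was at 0.00. Over the uncalled members log2 differences ran from -0.17 to 0.17 for mitochondrial carriers, from -0.07 to 0.20 for amino acid carriers, from -0.13 to 0.11 for metal carriers and from -0.12 to 0.17 for carriers of inorganic ions. A missed threshold does not show that these genes were equal on the gels.

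**Figure D3:**
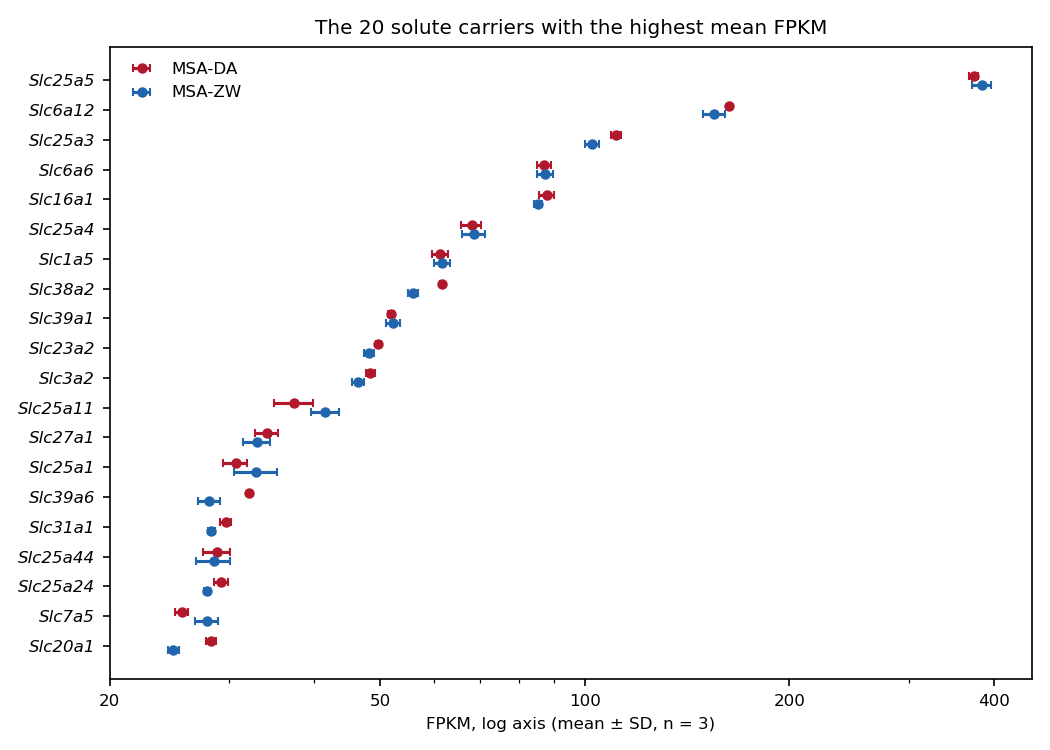
FPKM (horizontal log axis) of the 20 carriers with the highest mean level, ordered from the top, as mean ± SD of 3 libraries for MSA-DA (red, upper) and MSA-ZW (blue, lower). Slc25a5, at a mean of 379 FPKM, stands clear of Slc6a12 at 159 and Slc25a3 at 107, and in many rows the red and blue points nearly coincide.

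Per unit of transcript length the levels of the 127 carriers were spread over a wide range. Their mean over the 6 libraries ran from 1.02 to 379 FPKM with a median of 9.48 FPKM, and 3 carriers reached 100 FPKM, 28 reached 20 FPKM and 34 were under 5 FPKM. The 10 most abundant held 45.8% of the summed FPKM. They were, in order, Slc25a5, Slc6a12, Slc25a3, Slc6a6, Slc16a1, Slc25a4, Slc1a5, Slc38a2, Slc39a1 and Slc23a2. Of these, Slc6a12, Slc25a3 and Slc38a2 were called. The neighbours Slc6a6 and Slc16a1, with means of 87.2 and 86.6 FPKM, did not differ beyond the spread between libraries. The summed level of all 127 was 2430 ± 11 FPKM on MSA-DA and 2408 ± 21.0 FPKM on MSA-ZW (SD, n = 3 each).

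The base composition of the transcripts moved with the differences. The median GC content of the longest annotated transcript was 44.7% for carriers called higher, 55.8% for those called lower and 51.7% for those not called. Across the 127 genes, which share the same 6 libraries and are not independent, the Spearman correlation of GC content with the log2 difference was -0.45. Over 9081 tested genes of at least 100 counts it was -0.42. With a correction for GC content and length in the fit, 19 carriers were called, 14 higher and 5 lower, and 16 of the 24 kept their call. The share called over all tested genes under that correction was 10.8%, and over those with at least 100 counts in each library 13.6%. Slc16a12 (0.36), Slc5a3 (0.27), Slc45a3 (0.39), Slc20a1 (0.18), Slc39a6 (0.19), Slc38a2 (0.12) and Slc43a2 (-0.35) were among those kept. All of these but Slc45a3 had smaller differences than without the correction. So did Slc25a3 at 0.08 (edgeR adjusted p = 0.0328), Slc30a4 at 0.11, Slc15a3 at -0.15, Slc6a8 at -0.18 and Slc25a22 at -0.21. The kept calls with larger differences in size were those of Slc45a3, Slc16a10 (-0.18) and Slc6a12 (0.12). The calls lost under it were those of Slc25a11, Slc25a36, Slc25a37, Slc25a46, Slc29a1, Slc36a4, Slc38a6 and Slc7a5, and those gained were Slc25a28, Slc27a1 and Slc3a2.

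**Figure D4:**
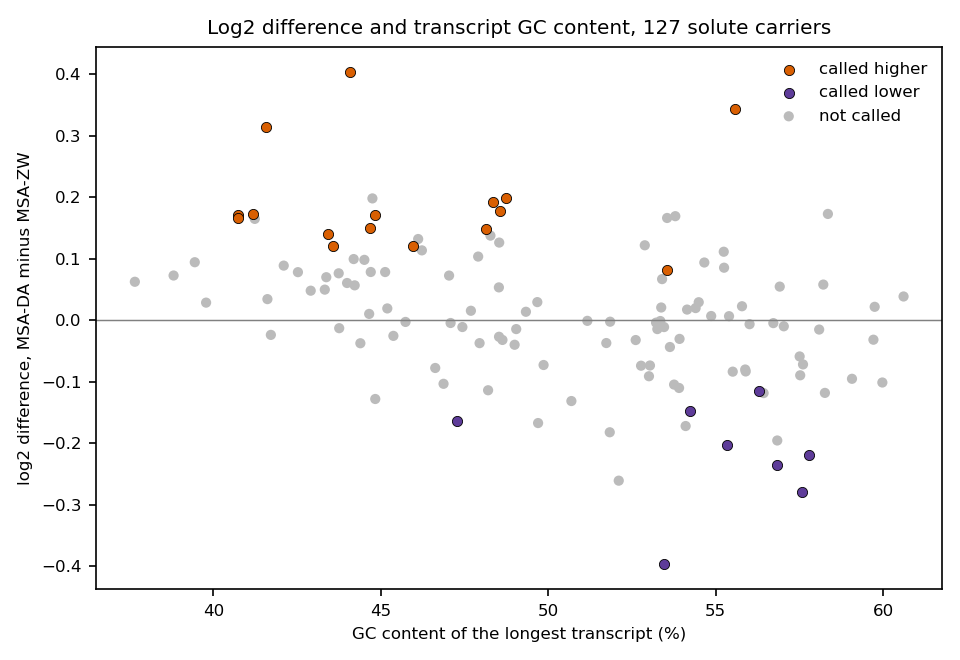
Log2 difference (MSA-DA minus MSA-ZW, vertical axis) against the GC content of the longest transcript (horizontal axis, %) for the 127 carriers, with called higher in orange, called lower in purple and not called in grey. Orange points gather at low GC content (median 44.7%) and purple points at high GC content (median 55.8%), with Slc45a3 an orange point among GC-rich genes.

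The calls differed in how well they held. With 17 other settings (other tests, scalings, a GC correction, a replicate block and each library left out), Slc16a12, Slc20a1, Slc30a4, Slc38a2, Slc39a6 and Slc43a2 were called in all 17, and Slc25a22, Slc25a3 and Slc6a8 in 16. At the other end, Slc38a6 was called in 2, Slc25a37 in 4 and Slc7a5 in 7. All 24 kept the sign of their difference in all 17. DESeq2 did not call Slc45a3, Slc25a11, Slc25a36, Slc25a37, Slc25a46, Slc29a1, Slc36a4, Slc38a6 or Slc7a5. limma on log2(FPKM + 1) did not call Slc5a3, Slc15a3, Slc25a11, Slc25a36, Slc25a37, Slc25a46, Slc36a4, Slc38a6, Slc6a12 or Slc7a5.

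**Figure D5:**
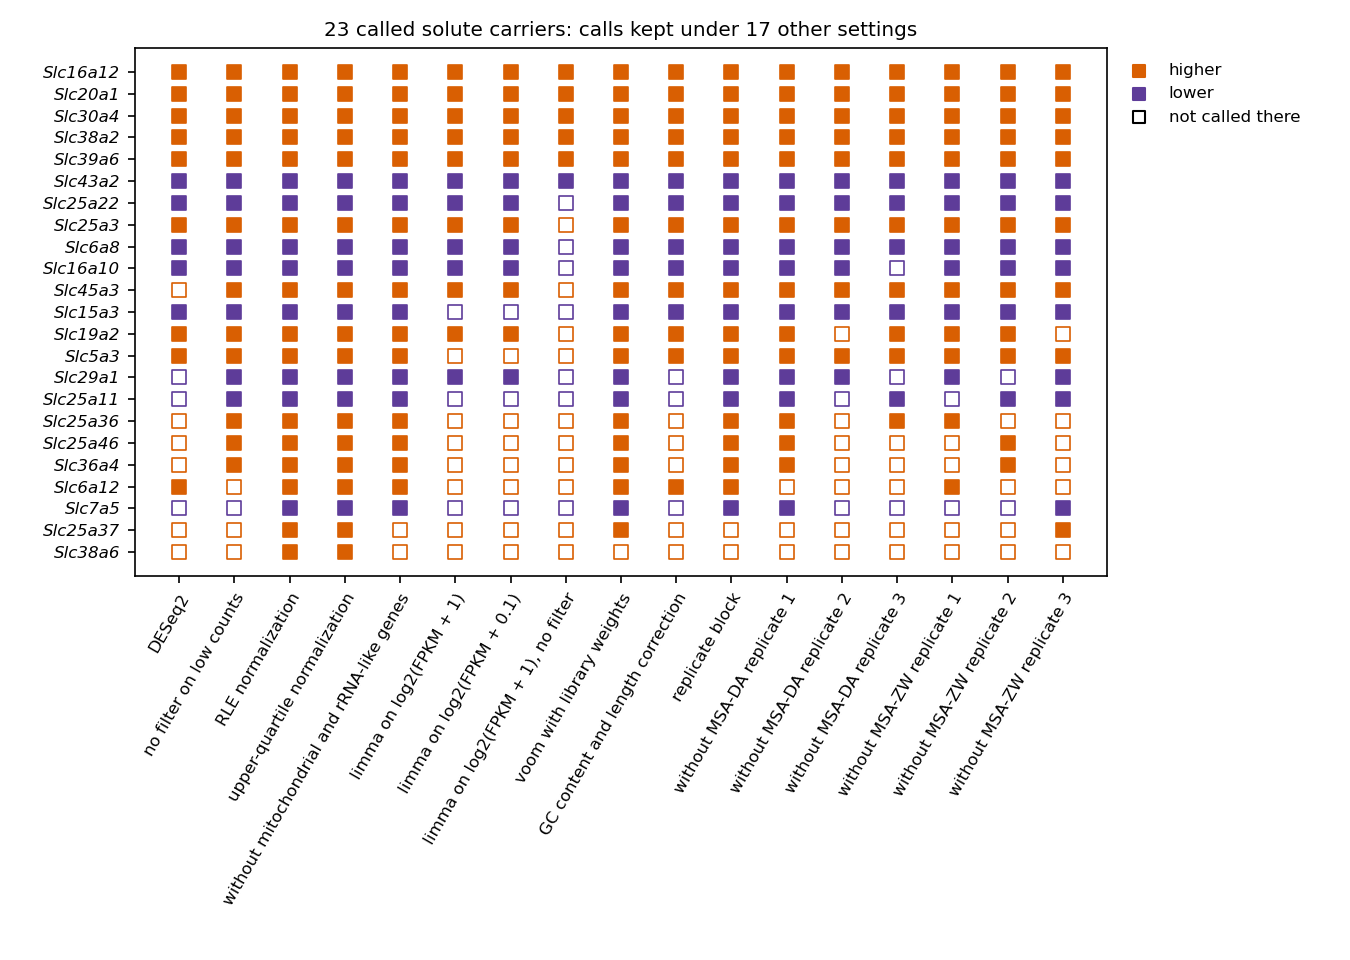
Of the 24 called carriers, 23 (rows) under 17 other settings (columns), with a filled square where the gene was still called (orange higher, purple lower) and an open square where it was not. The top 6 rows are filled throughout, and the rows of Slc25a37 and Slc38a6 are open in most columns.

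At the edge of the count minimum, the members with the fewest counts in their lowest library were Slc25a43 (106), Slc1a4 (115) and Slc12a5 (115). Just outside were Slc39a3 (97), Slc22a5 (92) and Slc17a6 (90). Slc17a6, a vesicular glutamate transporter best known from neurons, had 133, 149 and 139 counts on MSA-DA and 90, 102 and 92 counts on MSA-ZW. It missed the minimum because of its MSA-ZW libraries, and its log2 difference of 0.65 is outside the range of the members. In all, 8 genes met the minimum in some libraries and not in others. Of the 41 genes under the minimum that passed the filter on low counts, 1 was called higher and none lower. That is 2.44%, against 13.4% of all tested genes.

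Carriers left out by name and transporters with other symbols were counted in the same fit. The called share there was 13.4% over all tested genes and 17.2% over those with at least 100 counts in each library. Of the 8 named exceptions that were tested, 4 were higher and 1 was lower. Of 58 other transporter genes listed with earlier results known, 41 were tested, with 3 higher (Slc35e2, Mfsd1 and Npc1) and 2 lower (Ucp2 and Mtch1). Ucp2, the mitochondrial uncoupling protein of macrophages and a member of the Slc25 family by sequence, fell by 0.21 on the log2 scale (edgeR adjusted p = 1.64e-06).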

How the data were processed

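The submitters' processing notes name HISAT2 2.2.1, cutadapt 1.9.1 and bcl2fastq 2.20.0.422, and the build GRCm39. The counter, strand setting and annotation were not given in the sources used here, and reads of overlapping genes and close paralogs cannot be separated. The authors deposited raw counts and FPKM per gene and library, per the file headers.

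Counts were tested with edgeR 4.0.16 in R 4.3.3 (filterByExpr, TMM, glmQLFit and glmQLFTest on the group alone, all 6 libraries), with Benjamini-Hochberg adjustment over 12467 tested genes and a threshold of 0.05. CPM use TMM-scaled library sizes. The fit was checked on simulated data. All 127 members passed filterByExpr. Libraries of the same number were not treated as pairs in this fit. All library pairs differed by more than sampling noise.

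The members, lists and substrate classes were chosen with earlier results of these data known, and the classes and places were assigned by hand from textbook knowledge. Named genes were, among called members whose gels do not overlap, the 10 largest rises and up to 10 largest falls (7 qualified), with the most abundant and the lowest-p called member of each class and the 3 genes on each side of the count minimum. Slc25a11, Slc25a37, Slc36a4, Slc38a2 and all others named were chosen after their values were seen. The values of a few genes are not reported here. GC content came from the longest GENCODE transcript on GRCm38, matched by gene ID for all 127 members. Length was the exonic gene length that the authors deposited.

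Alternatives were DESeq2 1.42.0, limma 3.58.1 on log2(FPKM + 1) and log2(FPKM + 0.1) for genes of at least 1 FPKM in at least 3 libraries or without that filter, library weights, no filter on low counts, RLE and upper-quartile scaling, leaving out mitochondrial and ribosomal-RNA-like genes, a GC and length correction, a replicate block, each library left out, count minima of 50 and 200, and the named exceptions put back.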

Additional observations from a re-analysis of the deposited data

How the results depend on the processing

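Of the 127 solute carriers 24 were called (16 higher, 8 lower). DESeq2 called 14 (9 higher, 5 lower), 11% of all 127 carriers, against 15.5% of the 6221 genes it gave an adjusted p. A carrier that DESeq2 gave no adjusted p counts as not called, so these 2 shares have unlike bases. limma on log2(FPKM + 1) or log2(FPKM + 0.1) called 13 (8 higher, 5 lower), 10.2% of the carriers, against 8.33% and 8.23% of all genes. limma without the filter on low values called 6 (5 higher, 1 lower), 4.72% of the carriers, against 1.75% of all genes. With the named exceptions put back 29 of 135 were called (20 higher, 9 lower). In that fit 13.4% of all tested genes were called, and 17.2% of those with at least 100 counts in each library. With the GC content and length correction 5 were lower. With each library left out in turn, 14 to 21 were called, 8 to 15 higher and 5 to 9 lower, with the fewest (14) without MSA-DA replicate 2. In those fits 11% to 16.5% of the carriers and 7.89% to 13% of all genes were called. For the DESeq2, limma and left-out-library fits the share over genes with at least 100 counts in each library was not taken. The shares over all genes include genes with fewer counts than the carriers. The cause of these shifts was not tested.

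The median log2 difference of amino acid carriers was 0.037 and that of fatty acid carriers -0.00964 under the GC correction, that of vitamin, choline and amine carriers was 0.00708 with a minimum of 50 counts, and that of metal carriers was 0.0398 with the exceptions put back. With 1 library left out the medians were -0.022 to 0.0252 for amino acids, 0.00485 to 0.0367 for metals and 0.0167 to 0.0494 for mitochondrial carriers.

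Chosen after seeing the data, the same fits on the transporters with other symbols called 3 with DESeq2, 2 with limma in each of its 3 forms, 2 with the GC correction and 2 to 5 with 1 library left out, in place of 5. The named exceptions gave 3 calls with limma without a filter, in place of 5. For single genes, 513 of 629 alternative values kept their call, or stayed uncalled and moved by less than the spread between libraries. Another 4 stayed uncalled but moved by more, 2 gained a call, 110 lost their call, and none reversed. The 629 values pool genes that were called in the main fit with genes that were not. Only the called genes could lose a call, so the pooled count makes the calls look steadier than they were.

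Replicate numbers are shared by the gels, and the deviations of same-numbered libraries had correlations of 0.026, 0.0082 and 0.012. Those of differently numbered libraries ran from -0.026 to 0.015. Whether libraries of the same number shared a culture or batch is not said in the labels, and these values cannot show it. Fitting the replicate block gave 22 called carriers, without Slc25a37 and Slc38a6. Depth limits carriers near 100 counts, where differences of the sizes seen here need not be detectable.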

Other observations

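Several carriers that missed the threshold had differences as large as called ones but fewer counts. Slc38a9, the lysosomal arginine sensor, averaged 21.9 CPM on MSA-DA, against 19.1 CPM on MSA-ZW (log2 difference 0.20, SE 0.08, edgeR adjusted p = 0.0989). Slc10a3 averaged 13.7 CPM on MSA-DA, against 16.4 CPM on MSA-ZW (log2 difference -0.26, SE 0.10, edgeR adjusted p = 0.0838), and was called without MSA-ZW replicate 3. Slc27a4, a fatty acid carrier, averaged 18.2 CPM on MSA-DA, against 20.9 CPM on MSA-ZW (log2 difference -0.20, SE 0.08, edgeR adjusted p = 0.111).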
